A study of Mus musculus with 6 samples.

Results

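The genes described here are 43 genes of the p53 pathway and of programmed cell death, chosen by symbol: p53 and its inhibitors (3 genes), p53 targets (17), the Bcl2 family (12), caspases and their regulators (8) and necroptosis genes (3). All 43 were found among the 49585 gene identifiers in the count files, and all 43 passed the filter on low counts that left 13759 genes in the test. They were measured by RNA-seq in tumoroids, cultures of intestinal adenoma cells grown in Matrigel with EGF, basic FGF, Noggin, R-spondin and a ROCK inhibitor. The knock-out group (3 libraries, labelled APC min/+, Villin-Cre and IKKa FL/FL) carried floxed alleles of Chuk, the gene of the kinase IKKa, and the wild-type group (3 libraries, labelled APC min/+, Villin-Cre and IKKa +/+) carried intact alleles. Both groups were of the C57BL/6 strain and shared the Min allele of Apc and Cre under the Villin promoter, which is active in intestinal epithelium. The sources used here give neither the ages of the mice nor whether the replicates of a genotype were separate mice or cultures, so p-values reflect the spread among 6 libraries, which may be technical.

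The p53 protein is a transcription factor that is kept low by Mdm2 and Mdm4, which bind it and, in the case of Mdm2, mark it for degradation. DNA damage and other stresses release it, and it then switches on genes of cell cycle arrest, repair, metabolism and apoptosis, Mdm2 among them, so that the pathway limits itself. In the mitochondrial pathway of apoptosis, BH3-only proteins relieve the block that pro-survival Bcl2 proteins place on Bax and Bak1, cytochrome c leaves the mitochondria, and Apaf1 and caspase 9 start the caspase cascade. Caspase 8 starts the cascade from death receptors and also restrains necroptosis, a lytic death carried out by Ripk1, Ripk3 and Mlkl. In the intestine, p53 is known for the response of crypts to radiation, and caspase 8 for keeping the epithelium from necroptosis.

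Library totals ran from 26785922 to 31875723 counts in knock-out tumoroids and from 20749747 to 29752507 counts in wild-type tumoroids, so 1 CPM (counts scaled to the size of the library) stands for 20.7 to 31.9 counts. Chuk was at 28.9, 24.4 and 34.9 CPM in the knock-out libraries, against 101, 106 and 95.8 CPM in the wild-type libraries, a log2 fold change of -1.77 ± 0.12 (SE, adjusted p = 8.6e-08 by edgeR). The groups did not overlap, and a count per gene does not show whether the remaining Chuk reads hold the floxed part. The summed level of 7 intestinal epithelium markers was 10107 to 11851 CPM in knock-out tumoroids and 7674 to 8315 CPM in wild-type tumoroids. Of these markers Krt8, Krt18 and Krt19 were called higher, Epcam (2.22-fold), Vil1 (1.85-fold) and the intestinal identity factor Cdx2 (9.39-fold) were called lower, and Cdh1 averaged 1088 CPM in knock-out tumoroids and 1230.04 CPM in wild-type tumoroids without passing the test. Of 6 fibroblast markers the sum was at most 0.884 CPM in any library. The sum of 5 leukocyte markers was 12.0 to 12.9 CPM in knock-out tumoroids and 1.81 to 6.98 CPM in wild-type tumoroids. Cd68 made up 11.4 to 12.2 CPM of it in knock-out tumoroids and 1.64 to 6.25 CPM in wild-type tumoroids, and Cd3e and Adgre1 were at 0 in all libraries. The sum of 4 endothelial markers was 0.30 to 0.442 CPM in knock-out tumoroids and 9.93 to 14.5 CPM in wild-type tumoroids. Tek made up 0.187 to 0.442 CPM of it in knock-out tumoroids and 9.69 to 14.5 CPM in wild-type tumoroids, and Kdr was at 0 in all libraries. Mitochondrial transcripts took 2.15% to 3.46% of counts in knock-out tumoroids and 6.18% to 7.58% in wild-type tumoroids. Xist and the Y-linked Eif2s3y separated the genotypes, with at most 0.0969 CPM of Xist in knock-out tumoroids and at least 858 CPM in wild-type tumoroids, and at least 76.6 CPM of Eif2s3y in knock-out tumoroids and no count in wild-type tumoroids, so genotype and sex cannot be told apart. The part of these differences in the results below was not tested.

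Between the genotypes, 22 of the 43 genes were higher in the knock-out, 8 were lower and 13 did not pass an adjusted p of 0.05 (edgeR quasi-likelihood test, Benjamini-Hochberg adjustment over all 13759 genes). Of the 43 genes 51.2% were called higher and 18.6% lower, against 30.4% and 27% of all genes tested (57.4% in either direction). The median log2 fold change was 0.33 over the 43 genes and 0.00 over all genes tested. Most of the rises were of p53 targets, of which 14 of 17 rose (82.4%), 1 fell and 2 did not pass. That share depends on the grouping, since other p53 targets are counted elsewhere, with Mdm2 and Bax higher and Bbc3 and Pmaip1 not past the threshold. Further targets are in the wider p53 pathway list below, of which 19 of 33 tested genes rose, 7 fell and 7 did not pass. Of the Bcl2 family 5 of 12 rose and 3 fell, of the caspases and their regulators 2 of 8 rose and 1 fell, and of the necroptosis genes none rose and 2 of 3 fell. By at least 2-fold, 9 genes were higher and 2 lower (15.2% and 9.83% of all genes), and the folds ran from 1.26 to 4.23 upward and from 1.21 to 14.5 downward. The 3 knock-out libraries lay above the 3 wild-type libraries for 23 of the 43 genes and below them for 8, where the groups of 63.1% of all genes did not overlap (32.7% higher and 30.4% lower). Among the 40 genes with a mean of 5 CPM or more, 22 rose and 7 fell, against 31.4% and 29.4% of all genes at that level. In bulk RNA, fewer cells of a type and less RNA per cell cannot be told apart, which holds for every difference given here.

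**Figure D1:**
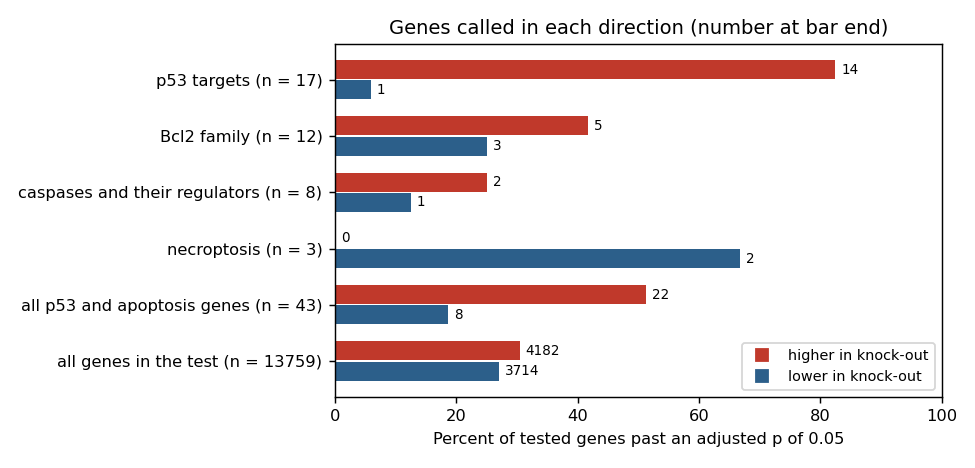
Percent of tested genes past an adjusted p of 0.05, higher (red) or lower (blue) in the knock-out than in wild-type tumoroids, for 4 of the gene groups, for all 43 genes and for all 13759 genes in the test, with the number of genes at the bar end. The bar of p53 targets that were higher reaches 82.4%, against 30.4% for all genes.

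**Figure D2:**
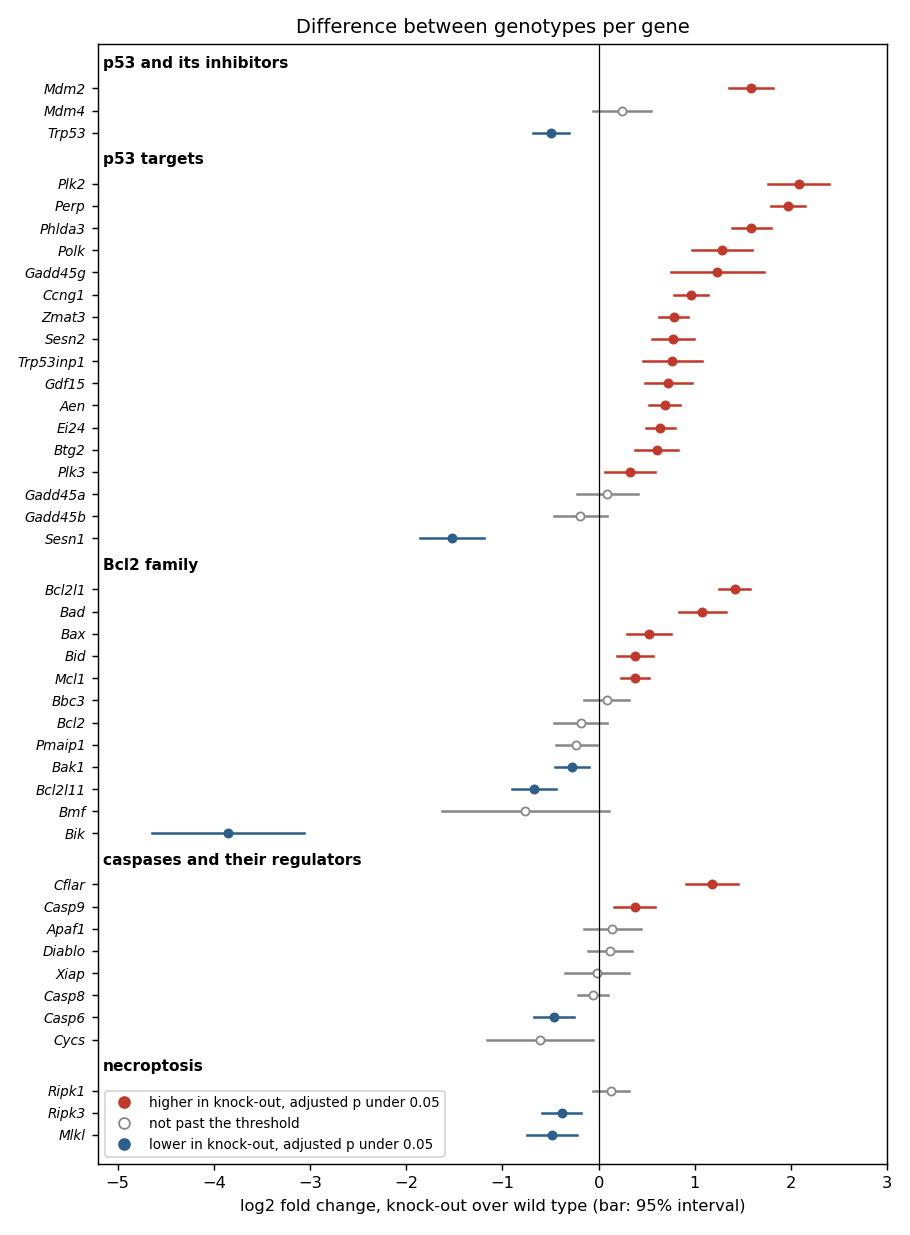
Log2 fold change of each gene, knock-out over wild type, with its 95% interval (bar), ordered by size within each group; filled points passed an adjusted p of 0.05. All but 3 of the p53 targets lie to the right of 0 with filled points, while the other groups spread to both sides.

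Levels of different genes were compared per kilobase of exon. In the knock-out the highest mean levels were those of Perp (357 CPM per kb), Ccng1 (338 CPM per kb), Phlda3 (203 CPM per kb) and Bax (187 CPM per kb). In the wild type the order was Ccng1 (174 CPM per kb), Bax, Perp (91.1 CPM per kb) and Mcl1 (73.1 CPM per kb). At the low end in both genotypes stood Bmf, at 0.187 CPM per kb in knock-out tumoroids and 0.305 CPM per kb in wild-type tumoroids. Plk2 ranked 5 in the knock-out, against 13 in wild-type tumoroids, and Mdm2 ranked 9, against 15.

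**Figure D3:**
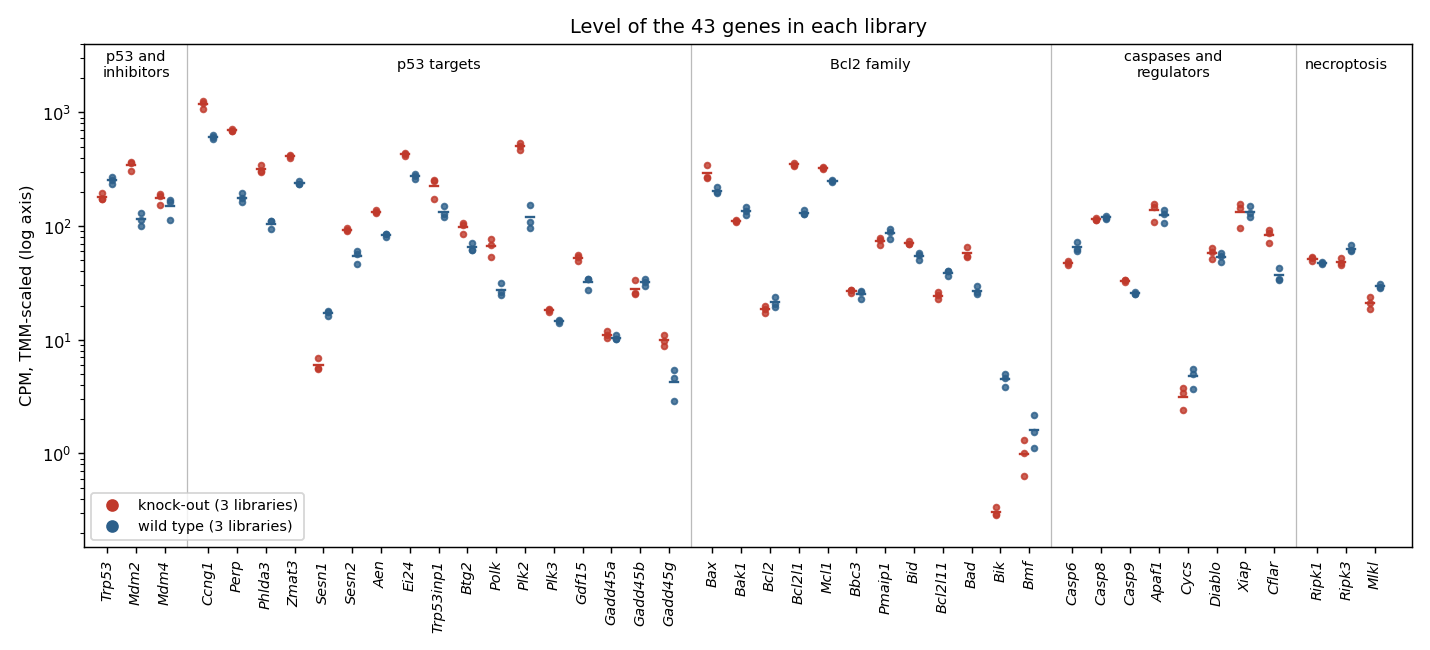
CPM per library on a log axis for each of the 43 genes, by group, with knock-out libraries (red) left of wild-type libraries (blue); the short line is the mean of 3 libraries. Within a genotype the points of most genes lie close together, with a median coefficient of variation of 7.25% in knock-out tumoroids and 8.4% in wild-type tumoroids.

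RefSeq promoters (GRCm38.p6, 250 bases before to 50 bases after a start site) were at hand for 38 of the 43 genes and are shown here for 5 of them, since p53 and NF-kB act on promoters by known motifs. Perp, Zmat3, Trp53inp1, Pmaip1 and Bik had no entry. The p53 response element was searched as 2 units of 10 bases, up to 13 bases apart, with at most 2 mismatches in all. Each unit reads 3 bases of A or G, then C, 2 bases of A or T, then G, and 3 bases of C or T. No mismatch was allowed at the C and G of either core, and the unit reads alike on both strands. It was found for 4 of the 38 genes (10.5%), namely Ccng1, Bax, Sesn1 and Gadd45a, and for 4.71% of all 27025 genes in the table. A gene can have more than 1 promoter, and per promoter the shares were 7.41% for the 38 genes and 4.09% for all genes. Ccng1 and Bax rose, Sesn1 fell and Gadd45a did not pass the test, so the match went with no one direction. In Ccng1 (chr11:40755237-40755536, minus strand) the 2 units adjoin and hold 1 mismatch, in Bax (chr7:45466849-45467148, minus strand) they are 1 base apart and in Sesn1 (chr10:41887189-41887488, plus strand) 3 bases apart, with 2 mismatches each. Capitals mark the units of the element.
Ccng1: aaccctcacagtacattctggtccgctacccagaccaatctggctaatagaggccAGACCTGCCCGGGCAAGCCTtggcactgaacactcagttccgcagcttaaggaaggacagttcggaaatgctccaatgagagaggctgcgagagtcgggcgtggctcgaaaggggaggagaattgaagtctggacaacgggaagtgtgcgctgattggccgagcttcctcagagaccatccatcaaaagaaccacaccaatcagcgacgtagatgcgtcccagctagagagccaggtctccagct
Bax: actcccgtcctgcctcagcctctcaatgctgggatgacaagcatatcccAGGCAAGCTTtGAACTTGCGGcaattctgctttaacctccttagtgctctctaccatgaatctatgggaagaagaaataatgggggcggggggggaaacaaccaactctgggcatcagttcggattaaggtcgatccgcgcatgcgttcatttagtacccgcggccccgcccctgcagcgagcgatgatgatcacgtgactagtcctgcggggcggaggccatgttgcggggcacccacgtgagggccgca
Sesn1: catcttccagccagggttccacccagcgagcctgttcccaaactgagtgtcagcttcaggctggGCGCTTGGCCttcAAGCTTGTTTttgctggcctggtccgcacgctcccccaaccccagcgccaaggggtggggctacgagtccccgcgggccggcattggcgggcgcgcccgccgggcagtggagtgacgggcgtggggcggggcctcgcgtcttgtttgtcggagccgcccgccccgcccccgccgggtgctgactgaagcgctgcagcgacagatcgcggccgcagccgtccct

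The 10-base NF-kB motif was searched on both strands without mismatches. It reads 3 bases of G, then A or G, any base, 3 bases of C or T, and a final C and C. A match was found for 4 of the 38 genes (10.5%), namely Trp53, Bcl2l1, Bbc3 and Xiap, against 6.55% of all genes in the table. Per promoter the shares were 7.41% for the 38 genes and 5.8% for all genes. None of the 14 genes of the p53 target group with a promoter held the motif, too few genes to tell from the 6.55% of all genes. Trp53 fell, Bcl2l1 rose, and Bbc3 and Xiap did not pass the test. The promoter of Trp53 (chr11:69580109-69580408, plus strand) holds it starting 5 bases before the start site, and that of Bcl2l1 (chr2:152830668-152830967, minus strand), 1 of 3 in the table for this gene, near its far end. Capitals mark the motif.
Trp53: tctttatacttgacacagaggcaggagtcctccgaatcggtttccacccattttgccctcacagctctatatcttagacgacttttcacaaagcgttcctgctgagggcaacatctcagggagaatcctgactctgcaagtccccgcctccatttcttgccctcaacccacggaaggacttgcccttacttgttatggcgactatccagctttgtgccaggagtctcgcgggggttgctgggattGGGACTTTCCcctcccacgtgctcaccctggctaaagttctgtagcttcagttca
Bcl2l1: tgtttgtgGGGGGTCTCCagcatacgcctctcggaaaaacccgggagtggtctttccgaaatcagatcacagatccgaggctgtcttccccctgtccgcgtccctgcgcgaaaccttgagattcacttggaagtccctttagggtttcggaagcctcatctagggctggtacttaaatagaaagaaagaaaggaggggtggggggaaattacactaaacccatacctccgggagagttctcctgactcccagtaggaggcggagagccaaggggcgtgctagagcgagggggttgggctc

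A match is a description of these letters and not of a bound site, and no match says only that the letters are not in this window.

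Trp53 itself (ENSMUSG00000059552, GRCm38 chromosome 11, 69580359 to 69591873, plus strand) was lower in the knock-out. It had 172, 195 and 171 CPM in the knock-out libraries, against 234, 253 and 272 CPM in the wild-type libraries. The groups did not overlap, and the fall was 1.41-fold (log2 fold change -0.49 ± 0.08 SE, adjusted p = 3.1e-04 by edgeR). Mdm2, the ubiquitin ligase that degrades p53 and is itself a p53 target (ENSMUSG00000020184, chromosome 10, 117688875 to 117710758, minus strand), had 361, 307 and 363 CPM in the knock-out libraries, against 114, 129.7 and 101 CPM in the wild-type libraries. The lowest knock-out library was more than 2-fold above the highest wild-type library, and the log2 fold change was 1.58 ± 0.10 (adjusted p = 6.5e-08 by edgeR). In the knock-out there were 2.10, 1.57 and 2.12 Mdm2 counts for each Trp53 count of the same library, against 0.487, 0.513 and 0.370 in wild-type tumoroids. This ratio, like the other ratios below, was chosen after the values were seen. Such ratios are not scaled for gene length, so they compare the genotypes and not the levels of different genes. Mdm4, the inhibitor related to Mdm2, had 189.8, 154 and 184 CPM in the knock-out libraries, against 163, 171 and 113 CPM in the wild-type libraries. Those values overlapped (adjusted p = 0.16, log2 fold change 0.24, 95% interval -0.06 to 0.54), and without knock-out replicate 2 the adjusted p was 0.034.

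Among the p53 targets, Plk2, Perp and Phlda3 rose the most. Plk2, a polo-like kinase, had 505, 467 and 539 CPM in the knock-out libraries, against 108, 154 and 96.5 CPM in the wild-type libraries, a log2 fold change of 2.08 ± 0.14 (adjusted p = 1.2e-07 by edgeR). Perp, a membrane protein of desmosomes that p53 switches on in apoptosis, had 693, 711 and 685 CPM in the knock-out libraries, against 163, 196 and 175 CPM in the wild-type libraries. Its log2 fold change of 1.97 ± 0.08 had the smallest adjusted p of the 43 genes (1.2e-09 by edgeR). Phlda3, a PH-domain protein that restrains Akt, had 304, 342 and 302 CPM in the knock-out libraries, against 93.4, 111 and 111 CPM in the wild-type libraries (log2 fold change 1.59 ± 0.09, adjusted p = 2.1e-08 by edgeR). For each of these genes the lowest knock-out library was more than 2-fold above the highest wild-type library.

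Polk, a DNA polymerase that copies past damaged bases, had 68.2, 53.4 and 77.1 CPM in the knock-out libraries, against 24.5, 31.4 and 26.2 CPM in the wild-type libraries (log2 fold change 1.28 ± 0.14, adjusted p = 8.4e-06 by edgeR). Gadd45g, a small stress-induced protein that binds cell cycle and kinase partners, had 8.84, 11.01 and 9.75 CPM in the knock-out libraries, against 2.91, 5.38 and 4.57 CPM in the wild-type libraries (log2 fold change 1.23 ± 0.22, adjusted p = 4.6e-04 by edgeR). Both genes were higher in every knock-out library than in any wild-type library, Gadd45g at low counts. Its relatives did not pass the test. Gadd45b had 25.7, 33.5 and 25.3 CPM in the knock-out libraries, against 29.9, 32.3 and 33.96 CPM in the wild-type libraries (adjusted p = 0.22), and without knock-out replicate 2, its highest knock-out value, it was called lower (log2 fold change -0.36, adjusted p = 0.0079). Gadd45a averaged 11.1 ± 0.731 CPM in knock-out tumoroids and 10.4 ± 0.494 CPM in wild-type tumoroids (SD, n = 3 each), with a 95% interval of -0.22 to 0.40 for the log2 fold change.

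Another 9 p53 targets rose by 1.26-fold to 1.94-fold. Ccng1, cyclin G1, averaged 1187 ± 98.7 CPM in knock-out tumoroids and 610.2 ± 26.5 CPM in wild-type tumoroids (SD, n = 3 each), the highest CPM of the 43 genes. Zmat3, an RNA-binding zinc finger protein, averaged 409 ± 10.03 CPM in knock-out tumoroids and 239 ± 8.25 CPM in wild-type tumoroids. Sesn2, a sestrin that dampens mTORC1 signalling, averaged 92.8 ± 2.92 CPM in knock-out tumoroids and 54.4 ± 7.14 CPM in wild-type tumoroids. In the same range were Gdf15, a secreted stress cytokine (1.65-fold), Trp53inp1 (1.70-fold), the nuclease Aen (1.61-fold), Ei24, a membrane protein of the endoplasmic reticulum (1.56-fold), and the antiproliferative gene Btg2 (1.52-fold), with adjusted p-values of 6.7e-06 to 5.0e-04. Plk3, a kinase related to Plk2, had 17.7, 18.6 and 18.4 CPM in the knock-out libraries, against 14.9, 14.003 and 14.5 CPM in the wild-type libraries. Its groups did not overlap, but its adjusted p of 0.033 was the largest of the 22 rises, and its call was lost without any 1 library (adjusted p 0.0621 to 0.0891), with the replicate block (adjusted p = 0.065), with upper-quartile scaling (adjusted p = 0.078) and with no filter (adjusted p = 0.095).

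Among the 17 genes of the p53 target group, Sesn1 was the 1 that fell. This relative of Sesn2 had 5.62, 6.89 and 5.55 CPM in the knock-out libraries, against 16.2, 17.6 and 18.02 CPM in the wild-type libraries. The groups were far apart, with a log2 fold change of -1.53 ± 0.15 (adjusted p = 3.4e-06 by edgeR), whereas Sesn2 went the other way (log2 fold change 0.77 ± 0.10, adjusted p = 3.4e-05 by edgeR).

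Of the Bcl2 family, the pro-survival genes Bcl2l1 and Mcl1 rose. Bcl2l1, which encodes Bcl-xL (ENSMUSG00000007659, chromosome 2, 152780668 to 152831728, minus strand), had 340.2, 358 and 348 CPM in the knock-out libraries, against 128, 126 and 139 CPM in the wild-type libraries. It rose in a narrow band (log2 fold change 1.41 ± 0.07, adjusted p = 7.8e-09 by edgeR). Mcl1, a short-lived pro-survival protein, had 332, 318 and 323 CPM in the knock-out libraries, against 245, 257 and 248 CPM in the wild-type libraries, a smaller rise (log2 fold change 0.38 ± 0.07, adjusted p = 4.4e-04 by edgeR). Within a library there were 1.02 to 1.12 Bcl2l1 counts for each Mcl1 count in knock-out tumoroids and 0.492 to 0.559 in wild-type tumoroids. Per kilobase, Mcl1 was above Bcl2l1 in the knock-out (94.9 against 76.0 CPM per kb) and in the wild type (73.1 against 28.5 CPM per kb). Bcl2, the founding member of the family, had 18.6, 17.2 and 19.8 CPM in the knock-out libraries, against 19.3, 23.8 and 20.7 CPM in the wild-type libraries. Its values overlapped (adjusted p = 0.23, 95% interval of the log2 fold change -0.46 to 0.09), and per kilobase it was at 2.03 CPM in knock-out tumoroids and 2.32 CPM in wild-type tumoroids, far below the levels of Bcl2l1 (76.0 CPM per kb in the knock-out and 28.5 CPM per kb in wild-type libraries).

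The effectors, which form pores in the outer mitochondrial membrane, moved in opposite directions. Bax, a p53 target in addition (ENSMUSG00000003873, chromosome 7, 45461697 to 45466898, minus strand), had 267, 348 and 271 CPM in the knock-out libraries, against 200.2, 194 and 221 CPM in the wild-type libraries (log2 fold change 0.53 ± 0.10, adjusted p = 9.5e-04 by edgeR). The groups did not overlap, and knock-out replicate 2 stood above the other knock-out libraries. Of the longest Bax transcript 17.6% is shared with transcripts of 1 other gene at 97% identity or more. A part of its reads could thus have been assigned elsewhere. Bak1 had 109, 112 and 112 CPM in the knock-out libraries, against 124, 135 and 146 CPM in the wild-type libraries (log2 fold change -0.28 ± 0.08, adjusted p = 0.011 by edgeR). The groups were apart by little, and Bak1 no longer passed when wild-type replicate 3 was left out (adjusted p = 0.062). There were 1.28, 1.03 and 1.28 Bcl2l1 counts for each Bax count in the knock-out libraries, against 0.637, 0.652 and 0.629 in the wild-type libraries. Per kilobase, Bax was above Bcl2l1 in the knock-out (187 against 76.0 CPM per kb) and in the wild type (130 against 28.5 CPM per kb).

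The 7 BH3-only genes, whose products oppose the pro-survival proteins, split into 2 rises, 2 falls and 3 that did not pass. The rises and the falls were 28.6% each, near the 30.4% and 27% of all genes tested. Bad, which binds Bcl-xL and is held off by phosphorylation, had 54.2, 64.9 and 53.1 CPM in the knock-out libraries, against 26.2, 25.2 and 29.9 CPM in the wild-type libraries (log2 fold change 1.08 ± 0.11, adjusted p = 5.3e-06 by edgeR). Of its annotated exon bases 20.5% lie opposite exons of Gpr137, and the strand setting of the authors' counting is not stated in the sources used here. Bid, which caspase 8 cleaves, averaged 70.7 ± 2.47 CPM in knock-out tumoroids and 54.5 ± 3.46 CPM in wild-type tumoroids (SD, n = 3 each, adjusted p = 0.0024 by edgeR), and 17.7% of its exon bases lie opposite exons of Bcl2l13. Bik, a BH3-only protein of the endoplasmic reticulum (ENSMUSG00000016758, chromosome 15, 83526862 to 83544634, plus strand), had 0.284, 0.337 and 0.291 CPM in the knock-out libraries, against 3.85, 4.99 and 4.61 CPM in the wild-type libraries. That was the widest gap among the 43 genes (14.5-fold lower, log2 fold change -3.85 ± 0.36, adjusted p = 1.8e-06 by edgeR), resting on 9 counts in each knock-out library. Bcl2l11, which encodes Bim, averaged 24.5 ± 1.63 CPM in knock-out tumoroids and 39.0 ± 2.11 CPM in wild-type tumoroids (log2 fold change -0.67 ± 0.10, adjusted p = 1.3e-04 by edgeR).

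The genes of Puma and Noxa, the BH3-only proteins best known as p53 targets, were not called higher. Of the p53 target group 14 of 17 genes were called higher, 1 was called lower and 2 did not pass. Bbc3, the gene of Puma, averaged 26.7 ± 0.767 CPM in knock-out tumoroids and 25.3 ± 2.18 CPM in wild-type tumoroids (SD, n = 3 each, adjusted p = 0.55), with a 95% interval of -0.16 to 0.32 for the log2 fold change. Pmaip1, the gene of Noxa, had 78.5, 67.5 and 75.1 CPM in the knock-out libraries, against 88.3, 94.7 and 77.3 CPM in the wild-type libraries. Its values overlapped (log2 fold change -0.23 ± 0.10, adjusted p = 0.057 by edgeR), and it was called lower with upper-quartile scaling (adjusted p = 0.019), with no filter (adjusted p = 0.042) and without wild-type replicate 3 (adjusted p = 0.024). Bmf, at 0.632 to 1.31 CPM in knock-out tumoroids and 1.11 to 2.16 CPM in wild-type tumoroids, was too low for a firm statement (95% interval of the log2 fold change -1.63 to 0.11).

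**Figure D4:**
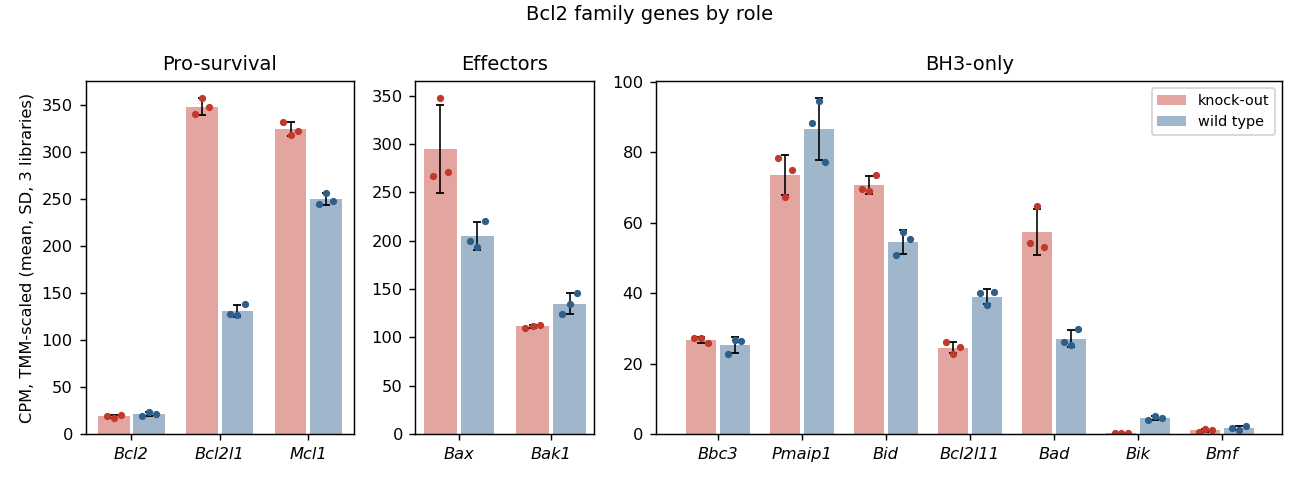
CPM of the 12 Bcl2 family genes by role, with knock-out (red) left of wild type (blue); bars are means of 3 libraries from 0, error bars are SD and points are libraries. Bcl2l1 stands at 340.2 to 358 CPM in knock-out tumoroids and 126 to 139 CPM in wild-type tumoroids, whereas Bbc3 and Pmaip1 overlap between the genotypes.

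Among caspases and their regulators, Cflar rose the most. It encodes cFLIP, a caspase 8 homologue that holds caspase 8 back at death receptors, and is also known as a target of NF-kB. Cflar (ENSMUSG00000026031, chromosome 1, 58711508 to 58758884, plus strand) had 87.7, 70.9 and 92.5 CPM in the knock-out libraries, against 42.6, 33.7 and 34.6 CPM in the wild-type libraries (log2 fold change 1.17 ± 0.12, adjusted p = 5.3e-06 by edgeR). Its neighbour Casp8 had 117, 113 and 114 CPM in the knock-out libraries, against 119, 123 and 116 CPM in the wild-type libraries. The Casp8 values overlapped (95% interval of the log2 fold change -0.21 to 0.10), and there were 0.628 to 0.812 Cflar counts for each Casp8 count in the knock-out, against 0.274 to 0.359 in wild-type tumoroids. Of the longest Cflar transcript 12% is shared with transcripts of other genes at 97% identity or more, so a part of its reads could have been assigned elsewhere.

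Casp9, the caspase of the apoptosome, averaged 33.1 ± 0.756 CPM in knock-out tumoroids and 25.5 ± 0.641 CPM in wild-type tumoroids (SD, n = 3 each, log2 fold change 0.38 ± 0.10, adjusted p = 0.0055 by edgeR). Casp6, an executioner caspase, averaged 47.3 ± 1.73 CPM in knock-out tumoroids and 65.4 ± 6.62 CPM in wild-type tumoroids (log2 fold change -0.47 ± 0.10, adjusted p = 0.0011 by edgeR). Apaf1, the scaffold of the apoptosome, had 147, 109 and 156 CPM in the knock-out libraries, against 139, 127 and 106 CPM in the wild-type libraries. It overlapped between the genotypes (adjusted p = 0.39), and without knock-out replicate 2 it was called higher (log2 fold change 0.26, adjusted p = 0.023). Cycs, the somatic cytochrome c gene, had 3.73, 3.37 and 2.39 CPM in the knock-out libraries, against 5.03, 3.68 and 5.57 CPM in the wild-type libraries (adjusted p = 0.055). That level is uncertain, since 30.3% of its longest transcript is shared with transcripts of 3 other genes at 97% identity or more, and it was called lower with upper-quartile scaling, both other filters, without knock-out replicate 2 and without wild-type replicate 2 (adjusted p 0.032 to 0.049). Diablo, which frees caspases from Xiap, averaged 58.2 ± 6.19 CPM in knock-out tumoroids and 53.5 ± 4.48 CPM in wild-type tumoroids (adjusted p = 0.36). Of its longest transcript 21% is shared with transcripts of 1 other gene at 97% identity or more. Diablo is the 1 gene of the 43 on chromosome 5. There the median log2 fold change of 685 genes at 5 CPM or more was 0.40, against -0.03 on the other autosomes. Xiap, an inhibitor of caspases and the 1 gene of the 43 on chromosome X, had 155, 95.5 and 145 CPM in the knock-out libraries, against 151, 131 and 119 CPM in the wild-type libraries, with no call under any alternative.

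The necroptosis genes Ripk3 and Mlkl fell by small amounts. Ripk3, the kinase that phosphorylates Mlkl, had 45.7, 52.3 and 47.6 CPM in the knock-out libraries, against 61.3, 59.8 and 68.5 CPM in the wild-type libraries (log2 fold change -0.38 ± 0.09, adjusted p = 0.0038 by edgeR). Mlkl, which breaks the plasma membrane, had 23.6, 21.2 and 18.5 CPM in the knock-out libraries, against 30.8, 28.8 and 29.1 CPM in the wild-type libraries (log2 fold change -0.49 ± 0.12, adjusted p = 0.0037 by edgeR). Neither overlapped between the genotypes. Ripk1, a kinase of both survival and death signalling, had 53.1, 49.2 and 52.9 CPM in the knock-out libraries, against 47.5, 47.8 and 46.4 CPM in the wild-type libraries. Its knock-out values all lay above its wild-type values, but by less than the test could call (adjusted p = 0.21, 95% interval of the log2 fold change -0.05 to 0.32).

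Further genes of the same pathways were taken from textbook knowledge, with earlier results of these data known, so they give no independent check. Of 33 tested genes of the wider p53 pathway, 19 rose (57.6%) and 7 fell (21.2%), against 30.4% and 27% of all genes. The list includes targets and upstream kinases. Those with the smallest adjusted p were Klf4 (3.09-fold higher), Cdkn1a, the p21 inhibitor of cyclin-dependent kinases (3.33-fold higher), Ptp4a3 (3.51-fold higher) and Eda2r, a gene of chromosome X for a receptor of the TNF receptor family (5.07-fold lower). Of 8 other Bcl2 family genes 2 rose (25%) and 4 fell (50%), against 30.4% and 27% of all genes. Bcl2l14 was at 7.40 ± 0.824 CPM in knock-out tumoroids and 35.7 ± 3.72 CPM in wild-type tumoroids (SD, n = 3 each). Bok, an effector homologue, was at 152 ± 9.09 CPM in knock-out tumoroids and 69.4 ± 3.59 CPM in wild-type tumoroids. Bcl2l2, a pro-survival relative of Bcl2l1, rose 1.81-fold, and Bcl2l15 was at 0.059 CPM in knock-out tumoroids and 1.24 CPM in wild-type tumoroids. Of 24 other apoptosis genes 3 rose (12.5%) and 12 fell (50%), against 30.4% and 27% of all genes. Dapk2 and Dapk1, death-associated kinases, moved in opposite directions, with Dapk2 at 0.811 ± 0.274 CPM in knock-out tumoroids and 46.7 ± 0.701 CPM in wild-type tumoroids, and Dapk1 at 91.2 ± 20.7 CPM in knock-out tumoroids and 3.95 ± 2.74 CPM in wild-type tumoroids. Naip5, a sensor of bacterial flagellin with close paralogs whose reads can be misassigned, was 59.5-fold lower, and Casp2 1.96-fold lower. Of 12 other necroptosis genes 6 rose (50%) and 1 fell (8.33%), against 30.4% and 27% of all genes. The apoptosis and necroptosis lists each mix genes that promote death with genes that restrain it. Their shares thus give no direction for either process. Tnfaip3, the ubiquitin-editing enzyme A20, was 9.05-fold higher, Tlr3 2.19-fold, and Rbck1 and Pgam5 1.43-fold and 1.37-fold higher. Pgam5 (log2 fold change 0.45) lies on chromosome 5, where the median log2 fold change of 685 genes at 5 CPM or more was 0.40.

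Knock-out replicate 2 stood apart from the other knock-out libraries in many of the 43 genes. The chi-square statistic of its counts per degree of freedom was 39.7 and 40.2 against replicates 1 and 3, and 5.86 between replicates 1 and 3. Xiap, Trp53inp1 and Apaf1 lay 0.65, 0.55 and 0.48 below the mean of the other knock-out libraries on the log2 scale (CPM plus 0.5), and Gadd45b and Bax lay 0.39 and 0.37 above it. Over the 43 genes the deviation of this library had a Spearman rho of -0.59 with exon length, and -0.55 over 10368 genes at 5 CPM or more, as a description in which all points share the same libraries. The same rho over the 43 genes was 0.485 and 0.592 for knock-out replicates 1 and 3. For wild-type replicates 1, 2 and 3 it was 0.481, -0.10 and -0.441. Within a genotype the deviations of a gene cancel out by construction, so opposite signs among its libraries are not independent results. Without knock-out replicate 2, 23 of the 43 genes were called higher and 10 lower, while calls over all genes were 8899 of 14459 tested, against 7896 of 13759 with it. The part of transcript length or library quality in the differences between genotypes was not tested.

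**Figure D5:**
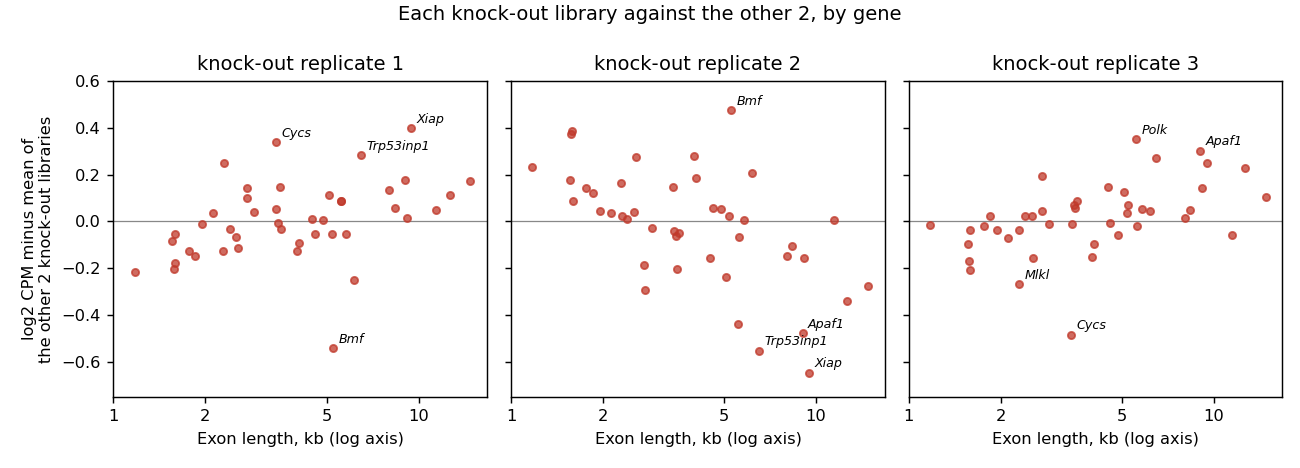
Deviation of each knock-out library from the mean of the other 2, as log2 CPM (CPM plus 0.5), against exon length in kb on a log axis; a point is 1 of the 43 genes and the 4 genes farthest from 0 are named. In knock-out replicate 2 longer genes lie lower, down to Xiap at -0.65.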

How the data were processed

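RNA-seq counts of 6 tumoroid libraries, 3 knock-out and 3 wild-type, were used. The values the authors deposited are raw counts per Ensembl gene. Libraries were stranded and polyA-selected, per the labels' protocols, and reads were aligned with STAR to GRCm38, per the submitters' processing notes. The counting program, its strand and multi-mapping settings and the annotation are not stated by the labels or notes at hand. Symbols, positions and exon lengths came from GENCODE M21 (GRCm38).

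Genotypes were compared with edgeR 4.0.16 (R 4.3.3) by its quasi-likelihood test (TMM scaling, filterByExpr with a minimum count of 10 and a minimum total of 15, not the legacy fit), with Benjamini-Hochberg adjustment over 13759 genes and a threshold of 0.05. Simulated data were used to test the code. CPM are TMM-scaled. A standard error is the size of the log2 fold change divided by the square root of the F statistic. Copies of transcripts were found by blastn (identity of at least 97%, length of at least 100 bases). Libraries were grouped by their titles, and no pair agreed within sampling noise.

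The genes, gene lists and tests were chosen with earlier results of these data known. Values in every library are given for genes that passed with at least 2-fold differences, for p53, its main inhibitor, Bax, Bak1, the pro-survival genes, Casp8 and the necroptosis genes, and for genes whose call changed with an alternative; of each wider list, up to 4 genes with the smallest adjusted p are named. Alternatives used DESeq2 1.42.0 and limma 3.58.1. A further leukocyte marker is not reported here. Depth limits the precision for genes at a few CPM, such as Bik, Bmf, Cycs and Gadd45g.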

Additional observations from a re-analysis of the deposited data

How the results depend on the processing

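Over 17 alternatives, between 21 and 23 of the 43 genes were called higher and between 7 and 10 lower, of 6397 to 8899 genes called in all, and 35 of the 43 genes kept their call and direction under every alternative run. These were scaling by DESeq2 size factors, upper quartile or library size, 2 other filters, the DESeq2 Wald test, limma voom, an adjusted p of 0.01, the replicate block, leaving out chromosomes X, Y, 5 and mitochondrial genes (41 of the 43 genes tested), each library in turn and, chosen after seeing the data, the legacy edgeR fit, which called 7711 genes in all. The exceptions were Plk3, Bak1, Mdm4, Gadd45b, Pmaip1, Apaf1, Cycs and Xiap; the cause was not tested. Of caspases and their regulators 2 were called lower, against 1, with upper-quartile scaling, with no filter and with one of 1 CPM, and 1 to 2 when single libraries were left out. Of p53 and its inhibitors 2 were called higher with no filter, against 1, and 1 to 2 when single libraries were left out, and of the p53 targets 1 to 2 were called lower then. Xiap, never called, had a log2 fold change of -0.15 to 0.14 when single libraries were left out, against -0.02, positive without knock-out replicate 2 (0.14) and without wild-type replicate 1 (0.08). With the replicate block 21 of the 43 genes were called higher and 8 lower (7432 genes in all). The numbers pair no samples by the labels, and correlations of deviations between same-numbered libraries were 0.06, -0.06 and -0.11. The threshold of 0.01 removed Plk3 and Bak1.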
